A study of Homo sapiens with 20 samples.

Results

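The integrated stress response regulators described here are 7 genes, ATF4 (ENSG00000128272), ATF3 (ENSG00000162772), DDIT3 (ENSG00000175197), CEBPB (ENSG00000172216), CEBPG (ENSG00000153879), PPP1R15A (ENSG00000087074) and CHAC1 (ENSG00000128965), chosen by identifier as 7 of the 19962 rows of a gene count table. The table comes from PAR-CLIP, in which RNA carrying 4-thiouridine is crosslinked to protein with 365 nm light and recovered with an antibody, here against IGF2BP3, an RNA-binding protein. All groups used HCT116, an established line from a human colorectal tumour, with the genotype Tet-OsTIR1-PURO, which carries an inducible plant F-box gene, and all groups received 100 µM 4-thiouridine for 15 h and 0.15 J/cm2 of light. The 5 conditions were tunicamycin (TM, a blocker of N-glycosylation that causes endoplasmic reticulum stress) at 5 µg/mL for 1 h or 4 h, DMSO at 1 to 1000 for 4 h as their vehicle, arsenite at 250 µM for 2 h, and PBS at 1 to 1000 for 2 h as its vehicle. Each condition had 3 anti-IGF2BP3 libraries and 1 IgG control library. No vehicle was given for 1 h, so in TM 1 h against DMSO the drug and the time of treatment change together and cannot be told apart. The treatment label and the protocol name the arsenic salt as arsenate, while the sample titles name arsenite, which is used here. The protocol gives 4 h of tunicamycin throughout, and the times in the sample labels were followed instead.

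In the integrated stress response, kinases such as PERK, which senses unfolded protein in the endoplasmic reticulum, and HRI, which responds to oxidative stress, phosphorylate the initiation factor eIF2. General translation falls, while the mRNA of the transcription factor ATF4 is translated more through short upstream reading frames. ATF4 dimerises with C/EBP proteins and raises ATF3, DDIT3 (which encodes CHOP), CHAC1 and PPP1R15A, and the PPP1R15A protein GADD34 guides a phosphatase back to eIF2. No library measured RNA abundance, so every value here is the RNA recovered with the antibody, and more RNA in the cell cannot be told apart from more binding per molecule, nor more cells from more RNA per cell.

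The 15 anti-IGF2BP3 libraries held between 130478 and 1568406 gene counts, with replicate 2 of PBS the shallowest, and the 5 IgG libraries between 5981 and 17503. The library names place PBS and arsenite in a set called S143, replicates 1 and 2 of the DMSO and TM groups in S142, and replicate 3 of those groups in S141, so tunicamycin and arsenite were never run in a shared set. Of 5 markers of epithelium, 1 (KRT8) could be placed in the RefSeq table, and it had clusters in 14 of the 15 libraries. Of the 4 markers of other cell types, 2 could be placed, and neither had a cluster in any library. The labels do not say whether replicates were separate cultures, so the p-values measure the spread between these samples, which may be technical.

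The authors' lists give clusters, which are stretches of RNA under overlapping reads with T-to-C conversions, the mark that crosslinked 4-thiouridine leaves. The sequences below are, for each gene, the 30 bases that clusters of the largest number of the 15 libraries covered in full, shown because they are the most often recovered RNA of each member. A second stretch is added for ATF3 only, although each member had one. All were copied from the cluster lists, 5′ to 3′ on the RNA strand with T for U, on GRCh38. Capitals mark CAT, the DNA form of the CAU core that is known for IGF2BP proteins.
ATF4: tgcccccttcaccttcttacaacctcttcc
ATF3: tcttccgatgtttgtgtcacacaacactga
ATF3, near the 3′ end: attgtactcaatggtatCATtacaattttc
DDIT3: acaattgggagCATcagtcccccacttggg
CEBPB: tctatatttttgtccaaaccaaccgcaCAT
CEBPG: atgcaggtCATgagtgtgaaattctcaaat
PPP1R15A: tgtggccacaccttcccgctcgtctgctgc
CHAC1: tgcctgtgtgttggtctattcctgggaagc
The ATF4 stretch lies at chr22:39522008-39522037 (plus strand) and was covered in 14 of 15 libraries. The ATF3 stretches, at chr1:212620081-212620110 and chr1:212620666-212620695 (plus strand), were covered in 14 and 13 libraries, and the second ends 82 bases before the annotated 3′ end. The DDIT3 stretch, at chr12:57516779-57516808 (minus strand), was covered in 4 libraries, and the CHAC1 stretch, at chr15:40956415-40956444 (plus strand), in 6. The stretches of CEBPB at chr20:50192240-50192269, CEBPG at chr19:33382307-33382336 and PPP1R15A at chr19:48875904-48875933, all on the plus strand, were covered in 5, 5 and 3 libraries. CAT was present in 3 of the 7 first stretches (DDIT3, CEBPB and CEBPG), beside 55.5% of the central 30 bases of 364271 clusters in the 15 libraries. Of the second stretches not shown, those of DDIT3 and CEBPG held CAT. Those of ATF4 (covered in 12 libraries), CEBPB, PPP1R15A and CHAC1 did not. Exons and untranslated regions of these genes were not used here.

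ATF4, the transcription factor at the centre of the response, was recovered at similar levels in both vehicles and was lowest after arsenite. In PBS its 3 libraries gave 383, 318 and 379.6 counts per 1000000 (CPM, on one TMM scale over the 15 libraries), and in arsenite 102, 131 and 152 CPM. Every arsenite library lay below every PBS library, and the fitted difference was -1.46 ± 0.13 (log2, ± SE) with an edgeR quasi-likelihood adjusted p of 4.2e-19. In DMSO the libraries gave 466, 386 and 334 CPM, at TM 1 h 319, 319.7 and 270.5 CPM, and at TM 4 h 481, 448 and 459 CPM. The TM 1 h libraries lay below all DMSO libraries and the TM 4 h libraries overlapped with them. Neither difference from DMSO passed the test, at -0.38 ± 0.11 (edgeR adjusted p = 0.11) for TM 1 h and 0.27 ± 0.09 (adjusted p = 0.08) for TM 4 h. Each difference passed under only 1 of 15 alternatives. For TM 1 h it was the fit without DMSO replicate 3 (edgeR adjusted p = 0.024), and for TM 4 h that without DMSO replicate 1 (adjusted p = 0.019). TM 4 h was above TM 1 h by 0.64 ± 0.10 on the log2 scale (edgeR adjusted p = 4.5e-06). In order of mean level ATF4 stood at 128 ± 25.3 CPM (SD, n = 3) in arsenite, 303 ± 28.3 CPM at TM 1 h, 360.1 ± 36.6 CPM in PBS, 396 ± 66.7 CPM in DMSO and 463 ± 16.9 CPM at TM 4 h, and only the gap between arsenite and TM 1 h was larger than the sum of the neighbours' SDs.

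ATF3, a bZIP factor that ATF4 and other stress signals induce, rose most after arsenite. Its libraries gave 371, 135 and 255 CPM in PBS and 1510.0, 1695 and 1413 CPM in arsenite. All 3 arsenite libraries were far above the PBS libraries, a difference of 2.42 ± 0.10 log2 (edgeR adjusted p = 3e-52). In DMSO the libraries gave 395, 340.3 and 639 CPM, at TM 1 h 213, 231 and 278 CPM and at TM 4 h 425, 571 and 402 CPM. All TM 1 h libraries were below all DMSO libraries, and ATF3 was lower at TM 1 h than in the 4 h DMSO vehicle by 0.91 on the log2 scale (SE 0.14, edgeR adjusted p = 1.7e-05). Without DMSO replicate 3, the highest DMSO library, the difference was -0.51 (edgeR adjusted p = 0.049). The call was lost with DESeq2 (adjusted p = 0.45) and with robust moderation in edgeR (adjusted p = 0.43), at almost the same fold. At TM 4 h the groups overlapped and the difference from DMSO was -0.04 ± 0.12 (edgeR adjusted p = 0.91). DMSO replicate 3 was the highest of the 9 libraries of that experiment, and within the S142 set, which leaves out every replicate 3, TM 4 h was above DMSO by 0.50 log2 (edgeR adjusted p = 0.0052).

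DDIT3 encodes CHOP, the C/EBP factor tied to cell death under long endoplasmic reticulum stress, and it had the largest rise of the 7 at TM 4 h over DMSO. Its libraries gave 16.5, 7.47 and 9.66 CPM in DMSO, 4.63, 11.1 and 6.71 CPM at TM 1 h and 133, 174 and 126 CPM at TM 4 h. In raw counts these were 6, 7 and 12, then 1, 5 and 7, then 59, 130 and 196. The TM 4 h libraries stood above all others by a wide margin, at 3.83 ± 0.24 log2 over DMSO (edgeR adjusted p = 2.7e-21), while TM 1 h overlapped with DMSO at -0.37 ± 0.49 (adjusted p = 0.88). PBS gave 9.75, 23.8 and 12.7 CPM and arsenite 27.9, 23.4 and 26.4 CPM, overlapping at PBS replicate 2. DDIT3 did not pass the filter on low counts in the 6 libraries of the arsenite experiment and so was not tested there. Without that filter the difference was 1.02 log2 (edgeR adjusted p = 0.18).

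CHAC1, an enzyme that degrades glutathione and a target of the ATF4 and CHOP branch, rose in both stresses. Its libraries gave 8.23, 16.0 and 11.3 CPM in DMSO, 4.63, 4.44 and 2.88 CPM at TM 1 h and 76.4, 152 and 113 CPM at TM 4 h. No library of TM 4 h overlapped with DMSO, and the rise was 3.20 ± 0.25 log2 (edgeR adjusted p = 5.3e-17). At TM 1 h all libraries were below DMSO, but rested on 1, 2 and 3 counts, and the difference of -1.79 ± 0.59 did not pass (edgeR adjusted p = 0.2). PBS gave 21.9, 31.8 and 28.0 CPM and arsenite 73.6, 67.0 and 51.9 CPM, groups that did not overlap, with a rise of 1.24 ± 0.32 log2 (edgeR adjusted p = 0.0011). The vehicles themselves stood apart, at 27.3 ± 4.97 CPM (SD, n = 3) in PBS and 11.8 ± 3.92 CPM in DMSO, a pair whose library sets also differ.

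PPP1R15A encodes GADD34, which ends the response by returning eIF2 to its active form. It rose after arsenite, from 29.3, 23.8 and 33.1 CPM in PBS to 55.8, 56.9 and 75.4 CPM, without overlap and by 1.11 ± 0.30 log2 (edgeR adjusted p = 0.0018). DMSO gave 54.9, 30.9 and 46.7 CPM, TM 1 h 13.9, 35.5 and 24.9 CPM and TM 4 h 38.2, 57.7 and 49.6 CPM, with overlap between each TM group and DMSO. Against DMSO the differences were -0.68 ± 0.28 at TM 1 h (edgeR adjusted p = 0.38) and 0.23 ± 0.22 at TM 4 h (adjusted p = 0.65). TM 4 h was above TM 1 h by 0.91 ± 0.27 log2 (edgeR adjusted p = 0.016), without overlap, a call that was lost within the S142 set (0.82, adjusted p = 0.24). It was also lost without replicate 1 or 3 of TM 1 h or replicate 2 or 3 of TM 4 h, with adjusted p between 0.052 and 0.19 in edgeR.

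CEBPG and CEBPB encode C/EBP partners of ATF4. CEBPG gave 79.6, 101 and 81.3 CPM in DMSO, 87.9, 77.7 and 105 CPM at TM 1 h and 94.4, 205 and 130.1 CPM at TM 4 h. Replicate 1 of TM 4 h lay inside the DMSO range and replicate 2 far above it, and the rise was 0.72 ± 0.16 log2 (edgeR adjusted p = 0.0023). Without TM 4 h replicate 2 it was 0.42 (adjusted p = 0.16), and with DESeq2 the adjusted p was 0.07. Between PBS, at 107, 119 and 127 CPM, and arsenite, at 78.7, 93.8 and 91.5 CPM, CEBPG was lower in all arsenite libraries but did not pass the test (-0.39 ± 0.19, edgeR adjusted p = 0.11). CEBPB gave 32.9, 22.4 and 17.7 CPM in DMSO, 32.4, 24.4 and 17.3 CPM at TM 1 h and 24.7, 38.9 and 46.4 CPM at TM 4 h, with overlap among all of them. Its rise at TM 4 h, 0.86 ± 0.27 log2, was just past the threshold (edgeR adjusted p = 0.044) and was lost within the S142 set (0.37, adjusted p = 0.79) and without replicate 2 or replicate 3 of either group (adjusted p between 0.083 and 0.42). PBS gave 29.3, 15.9 and 33.1 CPM and arsenite 15.2, 25.1 and 21.7 CPM for CEBPB, which overlapped (-0.43 ± 0.40, edgeR adjusted p = 0.43).

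**Figure D1:**
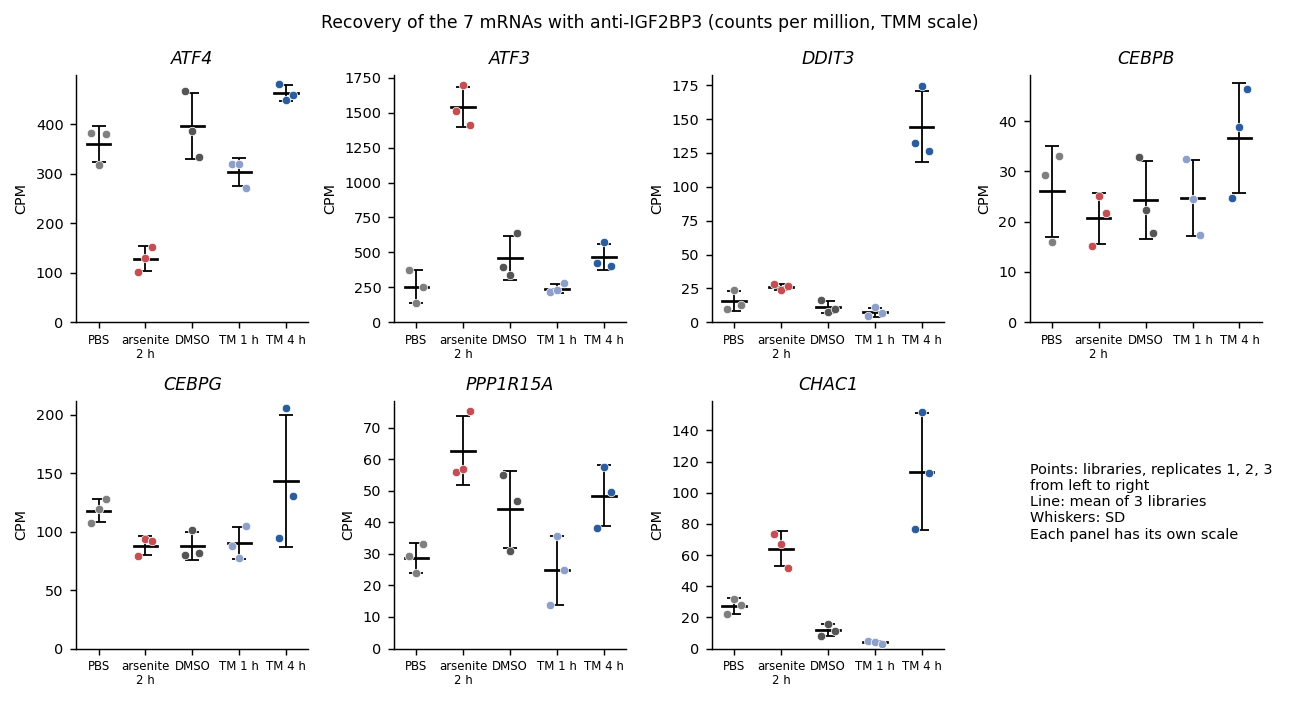
CPM of the 7 mRNAs in the 15 anti-IGF2BP3 libraries by condition; points are libraries, lines the mean of 3 and whiskers the SD. DDIT3 and CHAC1 are highest at TM 4 h, ATF3 is highest after arsenite at 1510.0, 1695 and 1413 CPM, and ATF4 is lowest there.

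Counted over the genes, TM 1 h against DMSO called 1 of the 7 members (ATF3, lower), where 0.408% of the 8343 genes tested were called lower. TM 4 h against DMSO called 4 of 7 (DDIT3, CHAC1, CEBPG and CEBPB), all higher, where 2.79% of the 8343 genes were called higher. DDIT3 and CHAC1 held few counts in DMSO and at TM 1 h and passed the filter on low counts through TM 4 h. Their place in the counts of calls and of overlap at TM 4 h is therefore no evidence apart from their rise. The median difference over the 7 members was 0.72 log2, beside 0.0037 over all genes tested. TM 4 h against TM 1 h called all 7 members higher, where 5.6% of genes were called higher, with the calls of CEBPB, CEBPG (without replicate 2 of TM 1 h or of TM 4 h, and with DESeq2) and PPP1R15A lost under several alternatives and that of ATF3 under robust moderation. By overlap alone, 3 of 7 members (ATF4, ATF3 and CHAC1) lay wholly below DMSO at TM 1 h, where 7.74% of genes did. At TM 4 h, 2 of 7 (DDIT3 and CHAC1) lay wholly above DMSO, where 10.4% of genes did, and 5 of 7 (all but CEBPG and CEBPB) lay wholly above TM 1 h, where 14% did. These 3 comparisons share libraries (DMSO, or a TM group) and are not independent of each other.

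Within S142, where both TM groups and DMSO had 2 libraries each, DDIT3 stood at 3.93 log2 over DMSO at TM 4 h, CHAC1 at 3.11, CEBPG at 0.76 and ATF4 at 0.15. There ATF3 stood at -0.69 log2 against DMSO at TM 1 h (edgeR adjusted p = 0.0096). S141 held 1 library a group and gives no test. Arsenite against PBS called 4 of the 6 members tested, ATF3, CHAC1 and PPP1R15A higher and ATF4 lower. There 17.6% of the 6642 genes tested were called higher and 17.1% lower, and all 4 member calls held under the 13 alternatives tried. The same 3 genes lay wholly above PBS, where 22.8% of genes did, and ATF4 and CEBPG wholly below, where 20.9% did. CHAC1 (9, 4 and 11) and PPP1R15A (12, 3 and 13) held few counts in PBS and passed the filter on low counts only with arsenite libraries. Their place in these counts of calls and of overlap is therefore no evidence apart from their rise.

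**Figure D2:**
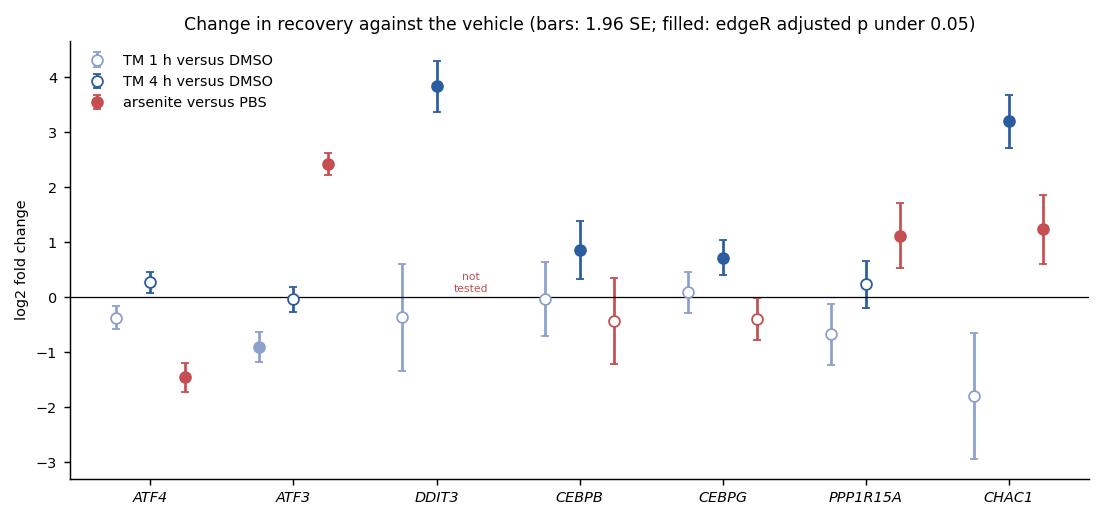
Fitted log2 fold change of each member at TM 1 h and TM 4 h against DMSO and after arsenite against PBS, with bars of the 95% interval and filled points where the edgeR adjusted p passed the threshold. ATF3 and ATF4 move in opposite directions after arsenite, 2.42 ± 0.10 and -1.46 ± 0.13, and DDIT3 reaches 3.83 ± 0.24 at TM 4 h.

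The difference between the 2 stresses was tested directly, as the arsenite effect over PBS minus the TM 4 h effect over DMSO. Of the 7 members the difference was called above 0 for 1 and below 0 for 5, where 8.57% and 9.74% of the 7796 genes tested were. ATF3 had the higher fold after arsenite, with a difference of 2.47 ± 0.20 log2 (edgeR adjusted p = 6.9e-17). ATF4 (-1.73 ± 0.17, adjusted p = 1.9e-13), DDIT3 (-2.85 ± 0.63, 0.00049), CHAC1 (-1.97 ± 0.48, 0.0016) and CEBPG (-1.11 ± 0.27, 0.0014) had the lower fold after arsenite, by the edgeR fit. For ATF4 that difference lay mostly in its fall after arsenite, since it did not pass at TM 4 h. DDIT3 held only 4, 3 and 5 counts in the PBS libraries and was not tested in arsenite against PBS alone. CHAC1, which rose in both stresses, thus rose less after arsenite. CEBPB passed narrowly at -1.30 ± 0.47 (edgeR adjusted p = 0.046) and was called under 7 of 19 alternatives, with adjusted p up to 0.2 without PBS replicate 3. PPP1R15A differed by 0.88 ± 0.37 and did not pass (edgeR adjusted p = 0.093), except without DMSO replicate 2 (adjusted p = 0.04). Stress, time of treatment and library set change together in this contrast and cannot be told apart.

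The authors' clusters show where on each RNA the antibody recovered crosslinked fragments. In none of the 5 IgG libraries did any cluster lie at a member, but their lists held only between 33 and 180 clusters each, so this absence says little. No cluster of any library lay on the strand opposite to a member within its span. ATF4 had clusters in all 15 libraries, ATF3 in 14, CEBPG in 12, CEBPB and CHAC1 in 7 each, PPP1R15A in 5 and DDIT3 in 4. The last count is all 3 TM 4 h libraries and replicate 3 of arsenite. Deeper libraries list more clusters, between 3579 in PBS replicate 2 and 63287 in TM 4 h replicate 3, so the absence of a cluster in a shallow library says little.

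At ATF4 (chr22:39520559-39522686, plus strand), 78.0% of all cluster reads fell in 1 region of 564 bases that began 1244 bases from the gene start and had clusters in all 15 libraries. The longest ATF4 cluster, 546 bases in TM 4 h replicate 3, had 1 reading frame without a stop codon. At the 5′ end of ATF4, bases 5 to 153, clusters were listed in 7 libraries, among them all 3 of TM 4 h, which held 84 of the reads there, more than all other libraries together. Cluster reads per 1000000 gene counts at ATF4 were 311, 53.6 and 300.0 in PBS and 26.6, 78.6 and 124 in arsenite, where PBS replicate 2 rested on a single cluster of 7 reads and overlapped with arsenite. In DMSO they were 385, 340.4 and 299.9, at TM 1 h 241, 260.2 and 235 and at TM 4 h 411, 396 and 444. All TM 1 h libraries were below and all TM 4 h libraries above the DMSO libraries.

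At ATF3 (chr1:212565407-212620777, plus strand), 96.6% of cluster reads lay in the last region, 1266 bases that end 2 bases before the annotated 3′ end. After arsenite the clusters there carried 2826 reads, and per 1000000 gene counts the whole gene carried 1348, 1565 and 1306, against 250.1, 0 and 191 in PBS. Regions at bases 43381 to 43468 and 49618 to 49842 from the gene start each had clusters in all 3 arsenite libraries, in 1 TM 4 h library and in no other. The second of them begins just after an annotated start site, at base 49612. With 53 and 63 arsenite reads these regions were small beside the 3′ region.

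DDIT3 (chr12:57516588-57520517, minus strand) had cluster reads of 37, 112 and 177 in the TM 4 h libraries, 7 in arsenite replicate 3 and none elsewhere. Its main region, bases 3652 to 3845, held 55.3% of them, and all its clusters lay within 1000 bases of the 3′ end. The DDIT3 span overlaps that of MARS1, on the other strand, by up to 65 bases. It also overlaps those of LOC128125814, on the same strand as DDIT3, and of MIR616. How the counting treated such overlaps is not given in the sources used here, and strand does not separate LOC128125814 from DDIT3. CHAC1 (chr15:40953471-40956512, plus strand) had 67.3% of its cluster reads in its last region, which had clusters in 3 arsenite, 3 TM 4 h and 1 DMSO libraries. Per 1000000 gene counts CHAC1 carried 21.9, 121 and 105 cluster reads at TM 4 h and 29.0, 32.1 and 31.9 after arsenite, against 0, 8.33 and 0 in DMSO and none in the PBS and TM 1 h libraries.

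At CEBPB (chr20:50190583-50192690, plus strand), 96 of the 101 cluster reads lay in bases 1640 to 1934, and 72 reads came from TM 4 h. The CEBPB span overlaps that of the antisense gene CEBPB-AS1 over 1487 bases. At CEBPG (chr19:33373709-33382686, plus strand) the clusters were spread over 13 regions between bases 5905 and 8911, of which bases 8497 to 8778 held the largest share, 37.4% of 444 reads. At PPP1R15A (chr19:48872421-48876058, plus strand) 114 reads fell in 9 regions, and the last, bases 3427 to 3609, held 38.6%. Conversions made up between 7.85% (ATF3) and 13.5% (PPP1R15A) of all events, converted or not, in the members' clusters, where whole anti-IGF2BP3 libraries gave between 7.58% and 8.81%. PPP1R15A and CEBPB rest on the fewest conversions, 84 and 66.

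**Figure D3:**
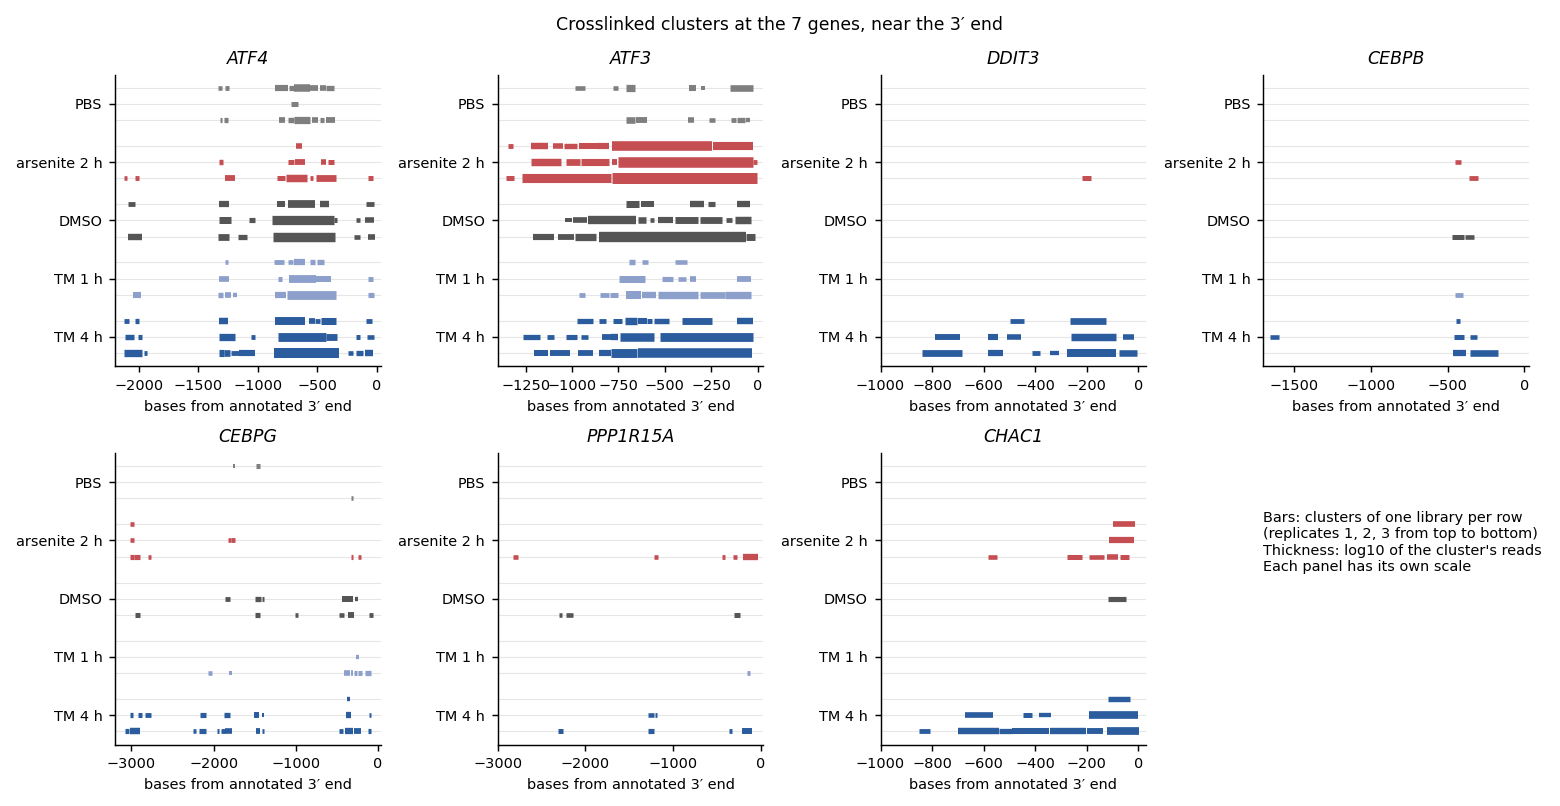
Clusters of each anti-IGF2BP3 library at the 7 genes, by distance in bases from the annotated 3′ end, with bar thickness growing with the log10 of the cluster's reads. ATF4 and ATF3 are covered in nearly all libraries, while the clusters of DDIT3 are listed in the 3 TM 4 h libraries and 1 arsenite library.

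The IgG libraries give the background of the recovery and were shallow. ATF4 had 18 counts in the 52256 gene counts of all 5 IgG libraries, 344 per 1000000 (exact 95% interval 204 to 544), beside 361 per 1000000 (exact 95% interval 339 to 385) in the summed DMSO libraries. ATF3 had 17 IgG counts, 325 per 1000000 (exact 95% interval 189.5 to 521), beside 479 per 1000000 in DMSO. For both, the interval in IgG held the DMSO value. In arsenite, ATF3 with the antibody stood at 1454 per 1000000 (exact 95% interval 1403 to 1506), above the interval of the arsenite IgG library (25.9 to 771). ATF4 stood at 131 per 1000000 with the antibody there, below the interval of the summed IgG libraries and inside that of the arsenite IgG library. Within the IgG libraries these members, CHAC1 and DDIT3 were most frequent at TM 4 h, with 10 counts of ATF4, 9 of ATF3, 6 of CHAC1 and 3 of DDIT3 of 11542 in that library. DDIT3 had no count in the other 4 IgG libraries. There the exact 95% interval reached up to 211 per 1000000 in PBS, the deepest of them, and up to 617 at TM 1 h, the shallowest. CHAC1 at TM 4 h stood at 519.8 per 1000000 (exact 95% interval 191 to 1131) in IgG and 115 per 1000000 (exact 95% interval 103 to 129) with the antibody. DDIT3 at TM 4 h stood at 260 per 1000000 (exact 95% interval 53.6 to 759) in IgG and 138 with the antibody. For ATF4 the values were 866 (416 to 1593) in IgG and 451, and for ATF3 780 (357 to 1480) and 444. For DDIT3, ATF4 and ATF3 the antibody value at TM 4 h thus lay inside the IgG interval. These intervals cover counting error only.

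In the edgeR fit of antibody against IgG over all 20 libraries, 7.43% of the 7022 genes tested were called higher, and of the 7 members only ATF3 (1.39 ± 0.32, adjusted p = 0.00071). With DESeq2 it was CHAC1 that passed, lower with the antibody (-1.83, adjusted p = 0.023). The median of all genes in that fit was 0.71 log2 with TMM factors and 0.092 with library totals only, where 6 of 92 called genes were higher against 522 of 582 with TMM, and ATF3 stood at 0.70 (adjusted p = 0.44). Without the IgG arsenite library, which held 2 counts of ATF3, its difference was 0.57 (edgeR adjusted p = 0.35). The part of background RNA in the members' rises was not tested.

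Other genes of the pathway were placed by their RefSeq positions and described by cluster reads per 1000000 gene counts, since the count table does not pair its identifiers with symbols. A gene was compared where at least 3 of the 6 libraries of a comparison, and at least 1 of each group, had cluster reads. Genes with reads in 1 group only entered through that group and are given apart, uncounted. The lists are known ATF4 and CHOP targets, genes of the IRE1 and ATF6 arms of the unfolded protein response, eIF2 with its kinases and other regulators, and further bZIP factors. The bZIP list also holds CEBPZ, which is not a bZIP factor despite its name and was compared at TM 1 h and TM 4 h.

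At TM 4 h, 8 of 14 ATF4 and CHOP targets compared were higher without overlap with DMSO and 0 lower, where 4.02% of all 5296 genes compared were higher without overlap. DDIT4, an inhibitor of mTORC1, went from 0, 30.2 and 10.1 in DMSO to 182, 263 and 277 at TM 4 h, and TRIB3, a pseudokinase that restrains ATF4 and CHOP signalling, from 155, 186 and 149 to 420.0, 915 and 518. STC2, a secreted glycoprotein, went from 107, 209 and 209 to 361, 729 and 539. The other 5 were SESN2, PSAT1, MTHFD2, SLC7A5 and SLC3A2, which serve mTORC1 control, serine and folate metabolism and amino acid uptake. DDIT4 and SLC3A2 had no reads in DMSO replicate 1. They met the minimum of 3 libraries only with TM 4 h, where they were high, so the count of this list is a description only.

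In the IRE1 and ATF6 arms 5 of 10 genes were higher at TM 4 h and 0 lower. HSPA5, the chaperone BiP, went from 155, 154 and 183 to 796, 1292 and 845, and HERPUD1, a factor of endoplasmic reticulum degradation, from 0, 12.5 and 5.44 to 241, 524 and 317. XBP1, DNAJB9 and HSP90B1 were the others. HERPUD1 and DNAJB9 had no reads in DMSO replicate 1 and likewise met the minimum only with TM 4 h, so this count too is a description only. None of the 7 eIF2 genes and none of the 12 other bZIP factors compared was free of overlap with DMSO in either direction. The median log2 ratio (of means plus 1) was 1.24 for the targets, 1.34 for the IRE1 and ATF6 arms, 0.53 for the eIF2 list and -0.33 for the bZIP list, beside 0.016 over all genes compared.

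After arsenite the measure itself moved, with a median ratio of 0.56 over all 3406 genes compared and 20.5% of them higher without overlap, where PBS replicate 2 was the shallowest library. Beside that share, 3 of 12 targets (TRIB3, SESN2 and SLC3A2) and 1 of 5 eIF2 genes (EIF2S1) were higher, while 6 of 8 genes of the IRE1 and ATF6 arms and 5 of 9 bZIP factors were, with ATF6 counted in both lists. Of these, HERPUD1, DNAJB9, HSP90B1, ATF6, ATF1 and JUNB had reads in only 1 PBS library. They met the minimum of 3 libraries through arsenite, where they were high. XBP1, ATF7, SLC3A2 and EIF2S1 had no reads in PBS replicate 2 and also met it only with arsenite. The counts of all these lists are therefore a description only. FOS and JUN had reads in arsenite only and stand outside these counts. FOS, a partner of JUN in the AP-1 complex, had no cluster reads in PBS and 1582, 1768 and 1562 per 1000000 after arsenite, and JUN had none in PBS and 324, 369 and 405. NFE2L2, which encodes the oxidative stress factor NRF2, went from 316, 92.0 and 327 to 1232, 1136 and 1247.

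At TM 1 h, 1 of 12 targets, the secreted factor GDF15, and 0 of 10 bZIP factors were lower without overlap, and none of either list was higher. JUNB had reads in DMSO only. Over all 4773 genes compared 4.67% were lower without overlap and the median ratio was -0.45, so the measure leaned lower at TM 1 h as a whole. The members' own changes by this measure share their reads with the count table and are no further evidence.

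**Figure D4:**
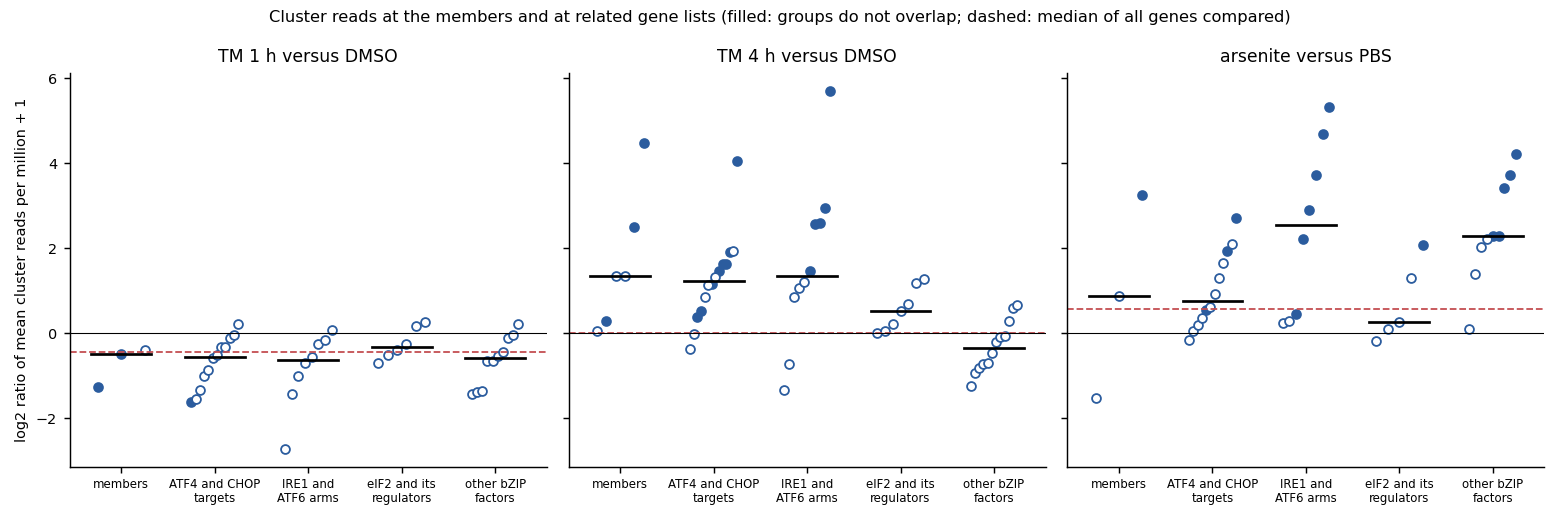
Log2 ratio of mean cluster reads per 1000000 (plus 1) between stress and vehicle for each member and each gene of 4 lists that had reads in both groups, with filled points where the groups did not overlap, bars at the list's median and a dashed line at the median of all genes compared. At TM 4 h the medians of the targets, 1.24, and of the IRE1 and ATF6 arms, 1.34, lie above the dashed line at 0.016.

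Among 5875 genes with a mean of at least 20 counts, the count profiles most like that of DDIT3 over the 15 libraries, by Pearson correlation of log2(CPM + 1), were those of ENSG00000044574_8 (r = 0.95) and ENSG00000101255_11 (r = 0.94). The table gives these identifiers no symbol, but their counts followed the cluster reads at HSPA5 and at TRIB3 with r = 0.996 and 0.998, the highest of 378 and 599 identifiers of like size. The 15 libraries share their depth and 5 conditions, so these values describe the pattern and carry no p. Among the members themselves, DDIT3 and CHAC1 had the most similar profiles (r = 0.85), ATF3 and PPP1R15A came next (r = 0.78), and ATF4 and ATF3 were the most opposed (r = -0.70).

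Promoter sequences were examined because several members move together and because ATF4 with C/EBP partners is known to bind a composite element. Within 250 bases before to 50 after the RefSeq starts (GRCh38.p14), the letters TGATGNAA were searched on both strands, with no other motif overlapping in the search. They occurred in 3 of the 7 members and in 4.46% of 27305 genes. The matches are shown in capitals, each with its surroundings on the gene's strand.
ATF3: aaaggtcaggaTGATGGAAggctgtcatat
CEBPG: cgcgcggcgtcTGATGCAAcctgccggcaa
CHAC1: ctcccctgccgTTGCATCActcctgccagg
They lie at chr1:212565205-212565234, chr19:33374060-33374089 and chr15:40953251-40953280, all on the plus strand, with the match of CHAC1 on the opposite strand. The first base of the match was at -191 from the start in ATF3, -42 from the second start in CEBPG and -209 in CHAC1. The CEBPG match thus lies inside the gene, upstream of its start at base 405. The ATF3 match belongs to the start at base 1 of the gene and not to the start at base 49612. DDIT3, ATF4, CEBPB and PPP1R15A had no match in these windows, which says only that these letters are not there.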

How the data were processed

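The series holds 20 PAR-CLIP libraries. The authors deposited raw counts per gene for 19962 genes, 1 column a library, with 0 columns left unmapped, and 1 list of clusters a library with read and conversion counts, whose mode score was deposited as a fraction and not used. Per the submitters' processing notes the tools were bcl2fastq 2.20.0.422, UMI-tools 1.1.1, Trimmomatic 0.30, Bowtie 0.12.7 and featureCounts 2.0.1, with the builds GRCh38.p13 and hg38, given without role or order. The cluster caller and the strand setting of the counting are not given in the sources used here. RNase amounts are given as alternatives without naming libraries.

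Samples were grouped by the labels. The count tests used edgeR 4.0.16 under R 4.3.3 (filterByExpr, TMM, quasi-likelihood, two-sided) with Benjamini-Hochberg adjustment over all genes tested and a threshold of 0.05. The fits held 9 libraries (DMSO and TM), 6 (PBS and arsenite), 12 (the difference between stresses) and 20 (IgG, with condition as covariate). DESeq2 1.42.0, other scalings, no filter, blocks and left-out libraries were alternatives. The fits were tested on simulated data, where the IgG fit recovered fewer changes and made more false calls than the others. CPM are on TMM factors over the 15 anti-IGF2BP3 libraries. Of 18 entries marked PAR_Y, none is a member.

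Members were named by the identifiers that chose them. Their positions, and those of listed genes, come from RefSeq on GRCh38.p14, whose promoter sequences matched the cluster letters in 539 of 539 placements. Promoter sequences are RefSeq's. All 7 members were found there by symbol. By the check used for HSPA5 and TRIB3, of counts against cluster reads, ATF3, DDIT3 and CHAC1 ranked 1 among identifiers of like size. ATF4 ranked 2 (r = 0.91), CEBPG 5 (r = 0.76) and CEBPB 41 (r = 0.60), and PPP1R15A (r = 0.64) had no rank. Of the lists, 12 of 14 eIF2 genes, 18 of 23 targets, 13 of 13 IRE1 and ATF6 genes and 16 of 19 bZIP factors matched with a strand. Genes with cluster reads in 1 group only were left out of the counts by list, a choice made after the data were seen. Listed genes were named where cluster reads of the groups did not overlap, at most 4 a list with values, since no table paired identifiers with symbols for an edgeR test by name. For each member the 2 genes of most similar profile were sought, and those of DDIT3 are given. The 2 IgG cluster lists of the arsenite set have names that point to each other's sample, and the sample given for each list was used. The members, lists and tests were chosen with earlier results of these data known.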

Additional observations from a re-analysis of the deposited data

Results flagged for a closer look

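The responses to arsenite over PBS and to tunicamycin for 4 h over DMSO differed, by the contrast of both effects in 1 edgeR fit over 12 libraries, for 6 of the 7 members. The difference (arsenite effect minus TM 4 h effect, log2) was 2.47 for ATF3, which was called higher after arsenite and not at TM 4 h. It was -1.73 for ATF4, which was called lower after arsenite and not at TM 4 h. It was -1.97 for CHAC1 and -2.85 for DDIT3 (4, 3 and 5 counts in PBS), the members with the largest rises at TM 4 h over DMSO. It was -1.11 for CEBPG and -1.30 for CEBPB, of which CEBPB passed under 7 of 19 alternatives and CEBPG under all 19. The library set, the vehicle and the time of treatment differ between the stresses as well, and their part cannot be told apart from that of the stress.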

How the results depend on the processing

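Counts of genes called moved by more than 1.5 times under some alternatives. With DESeq2 they were 6 for TM 1 h against DMSO (46 with edgeR), 151 for TM 4 h against DMSO (426), 502 for TM 4 h against TM 1 h (967), 1233 for arsenite against PBS (2310), 854 for the difference between stresses (1427) and 178 for antibody against IgG (582). Within the S142 set they were 16, 129 and 488 for the TM comparisons in that order, and for IgG 92 with library totals and 91 with RLE factors. Leaving out 1 library gave 13 to 41 for TM 1 h, 178 to 431 for TM 4 h, 523 to 859 for TM 4 h against TM 1 h, 1714 to 2392 for arsenite, 1052 to 1377 for the difference between stresses and 338 to 574 for IgG, with fewer samples in each. The lowest TM 1 h and TM 4 h counts both came without DMSO replicate 3. Other causes were not tested.

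Some member folds changed sign. Within S142, CEBPB (0.075) and CEBPG (-0.22) did so at TM 1 h and ATF3 (0.50) at TM 4 h, where DESeq2 gave ATF3 0.012. Over left-out libraries CEBPB ran from -0.25 to 0.30 and CEBPG from -0.13 to 0.22 at TM 1 h, and ATF3 from -0.25 to 0.36 at TM 4 h. None of these was a call with all libraries. Against IgG, library totals, RLE and DESeq2 gave ATF4 -0.092, -0.10 and -0.091, DDIT3 -0.48, -0.50 and -0.83, and CEBPG -0.35, -0.35 and -0.39, while DESeq2 gave CEBPB -0.18, PPP1R15A -0.11 and CHAC1 -1.83 (adjusted p = 0.023). Left-out libraries moved DDIT3 from -0.093 to 5.97 and CEBPG from -0.057 to 0.81 there.

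Same-numbered libraries did not deviate together (correlations from -0.12 to 0.09), so the numbers were not taken to pair the samples. With the replicate block the counts were 43, 371, 902, 2111 and 1247, in the order TM 1 h, TM 4 h, TM 4 h against TM 1 h, arsenite and the difference between stresses. Among members CEBPB lost its call in 3 comparisons (adjusted p = 0.063, 0.054 and 0.064, edgeR) and no other call changed. Mean levels with library totals all stayed within 1 SD. With only clusters of at least 10 reads, 45 of 105 pairs of member and library had a cluster, against 64, and the 1000-base extension changed none. The depth limits DDIT3, CEBPB, PPP1R15A and CHAC1 most, since several of their groups hold few counts.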
